A study of Mus musculus with 77 samples.

Results

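The livers described here were those of Aco1+/+ mice, the wild-type animals of the *Aco1* line, collected at zeitgeber time 5 (ZT5, 5 h after lights on) and at ZT12 (lights off). They were chosen by genotype, line and time alone: 3 livers at each time, 6 of the 24 livers of the series, which gave 12 of its 48 libraries and 23 of its 77 deposited runs. Each liver was measured as ribosome-protected fragments (RPF, ribosome profiling) and as total RNA (RNA-seq). The study set wild-type mice beside mice lacking IRP1 (the protein made from *Aco1*) or IRP2 (made from *Ireb2*) at the same times of day, and asked how far iron-regulatory proteins shape daily changes in mRNA translation. The mice were healthy adult males on a C57BL/6J background, kept on a light-dark cycle with no drug or diet treatment, and Aco1+/+ animals carry no deletion. A second wild-type group, Ireb2+/+ at the same 2 times with 3 livers each, and the constitutive Aco1-/- animals are used below for comparison. Aco1-/- livers also entered the estimate of spread behind the tests of ZT12 against ZT5 in Aco1+/+ liver. Every liver was a whole-tissue extract of 1 animal, so all its cell types were measured together.

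Reads in coding sequences (CDS) were compared. RNA libraries held 1271060 to 3224032 CDS counts at ZT5 and 2100886 to 3934371 at ZT12. RPF libraries held 2448915 to 8738063 at ZT5 and 8621946 to 10075277 at ZT12, and ZT5 replicate 3 was the shallowest of both kinds. Values are given in CPM, counts scaled to the size of the library, after upper-quartile scaling over all 48 libraries, RNA and RPF together. Translation efficiency (TE) is the ratio of RPF to RNA, on the log2 scale. A gene "rose" or "fell" when ZT12 differed from ZT5 at an adjusted p under 0.05 (edgeR quasi-likelihood test, Benjamini-Hochberg adjustment over 10696 genes), and fold changes are log2 of ZT12 over ZT5. Of the cell type markers checked, those of hepatocytes had the highest summed RNA level, 131800.0 to 153400.0 CPM at ZT5 and 154200.0 to 182900.0 at ZT12.

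The liver clock runs on a feedback loop in which CLOCK and BMAL1 (made from *Arntl*) bind E-boxes and switch on *Per* and *Cry* genes, whose proteins then block CLOCK and BMAL1. REV-ERB and ROR receptors compete on RORE elements to set the phase of *Arntl*, and the PAR bZIP factors DBP, TEF and HLF, opposed by NFIL3, act on D-boxes. Mice eat mainly in the dark, so ZT5 lies in the rest and fasting phase and ZT12 at the onset of feeding. Ribosome profiling sequences the mRNA pieces covered by ribosomes, so an RPF change can come from the amount of mRNA, from ribosomes per mRNA, or from both.

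Many mRNAs changed between ZT5 and ZT12, and for 390 genes RNA and footprints both passed the test, in the same direction. *Usp2*, *Nampt*, *Por*, *Per2* and *Slc37a4* were among the rises. *Arntl*, *Npas2*, *Insig2*, fibrinogen genes and *Hal* were among the falls. Total RNA of 352 genes rose (3.29% of the 10696 tested) and that of 402 fell (3.76%), 754 in all or 7.05%. RPF of 370 genes rose (3.46%) and that of 340 fell (3.18%), 710 in all or 6.64%. TE passed the test for 2 genes (0.0187%), although 801 genes (7.49%) had an unadjusted p under 0.05. Changes over 2-fold were seen for 127 genes up and 198 down among the RNA calls, and for 147 up and 151 down among the RPF calls. Median changes over all genes were −0.04 for RNA, −0.06 for RPF and 0.00 for TE. The counts depended on single livers. RNA calls numbered 407, 323 and 418 without ZT5 replicate 1, ZT5 replicate 2 and ZT12 replicate 2. RPF calls numbered 299 to 443 when any liver other than ZT5 replicate 3 was left out, and 1032 without that shallowest one. Called genes that were still tested kept their direction in every alternative fit, except 4 RNA calls when RNA was counted over all columns of the count files and not the CDS alone.

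**Figure D1:**
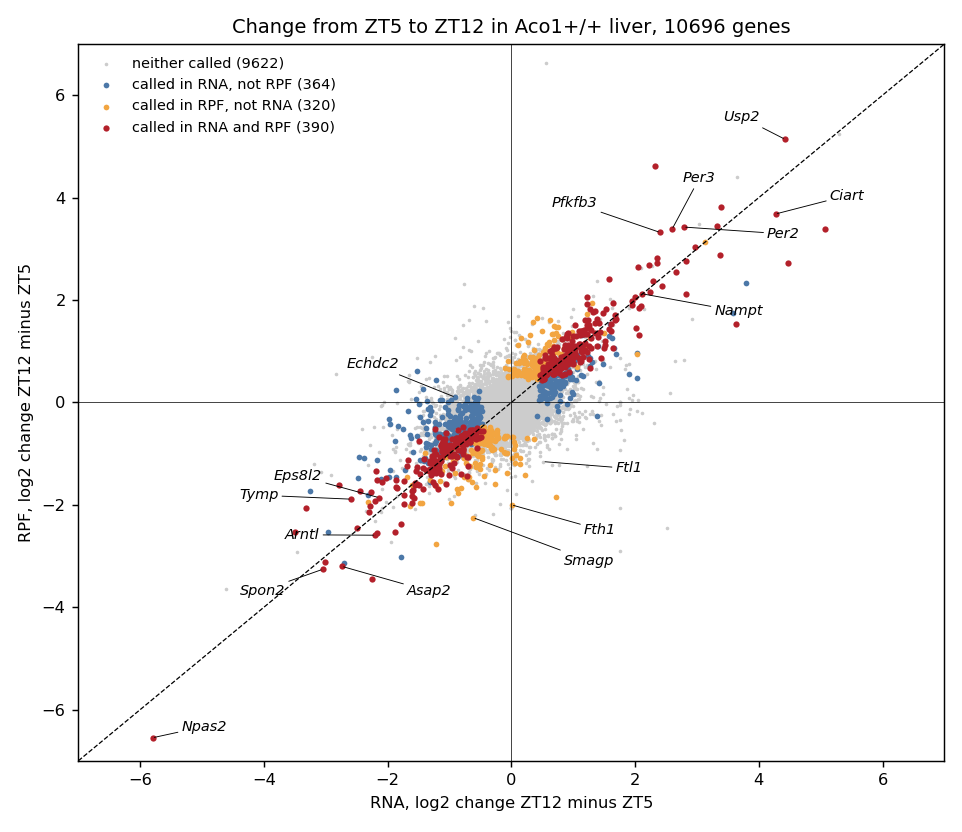
Change of RPF (log2 of ZT12 over ZT5, vertical axis) against change of total RNA (horizontal axis) for the 10696 genes tested in Aco1+/+ liver, with genes called in RPF, in RNA or in both marked by colour. Most RPF calls lie near the diagonal, and 690 of 710 have an RNA change of the same sign.

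The leading rises and falls were taken by smallest adjusted p from calls whose livers did not overlap between times, so that separation was fixed by the choice and is not a result. *Usp2*, which encodes a ubiquitin-specific protease, had the largest RNA rise among the genes with the smallest p. Its RNA was 1.32, 2.40 and 2.54 CPM in the ZT5 livers and 41.9, 54.1 and 40.5 in the ZT12 livers (log2 fold change 4.42, SE 0.30, adjusted p = 1.62e-12). Its footprints went from 1.52, 3.34 and 3.64 to 87.0, 104 and 82.5 CPM (log2 fold change 5.14, SE 0.33, adjusted p = 2.92e-07). *Nampt*, the rate-limiting enzyme of NAD salvage, had RNA of 45.7, 41.1 and 57.0 CPM at ZT5 and 195, 199 and 219.7 at ZT12 (log2 fold change 2.11, SE 0.17, adjusted p = 4.87e-11), and its footprints rose by 2.12 (adjusted p = 2.47e-06). *Por*, the reductase that feeds electrons to cytochromes P450, had RNA of 89.6, 102 and 120.4 and then 546, 512 and 464 CPM (log2 fold change 2.29, SE 0.19, adjusted p = 8.31e-09). *St3gal5*, the ganglioside GM3 synthase, rose by 2.09 (adjusted p = 4.50e-08) in RNA and 1.89 (adjusted p = 2.71e-05) in RPF. *Coq10b*, a coenzyme Q-binding protein of mitochondria, rose by 1.96 (adjusted p = 4.01e-07) and 1.90 (adjusted p = 1.17e-06). *Pfkfb3*, which makes the glycolytic activator fructose 2,6-bisphosphate, rose by 2.40 (adjusted p = 1.99e-07) in RNA and 3.32 (adjusted p = 0.0016) in RPF. *Akr1c19*, an aldo-keto reductase, rose by 1.28 (adjusted p = 1.99e-07) in RNA. *Fkbp5*, a co-chaperone of the glucocorticoid receptor and a glucocorticoid-induced gene, rose by 2.82 (adjusted p = 1.05e-06) in RNA and 2.77 (adjusted p = 0.000535) in RPF. *Nmrk1*, a nicotinamide riboside kinase and so a member of NAD synthesis alongside *Nampt*, rose by 1.82 (adjusted p = 3.08e-05) in RPF.

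Among the falls, *Eps8l2*, of the actin-regulating EPS8 family, had RNA of 101, 86.9 and 74.2 CPM at ZT5 and 17.3, 21.1 and 20.4 at ZT12 (log2 fold change −2.15, SE 0.18, adjusted p = 2.67e-10). Its footprints fell from 114, 94.5 and 119 to 26, 32.7 and 31.2 CPM (log2 fold change −1.86, SE 0.18, adjusted p = 6.18e-06). *Coq8a*, an atypical kinase needed for coenzyme Q synthesis, changed by −1.87 (adjusted p = 3.09e-09) in RNA and −1.66 (adjusted p = 2.63e-05) in RPF, opposite to *Coq10b*. *Plin2*, a coat protein of lipid droplets, had RNA of 445, 412 and 416 CPM and then 155, 140.5 and 147 (log2 fold change −1.52, SE 0.16, adjusted p = 5.93e-08). In RNA, *Tjp3* (zonula occludens 3) changed by −2.21 (adjusted p = 3.24e-08), *Cldn1* (claudin 1) by −2.31 (adjusted p = 1.99e-07) and *Aqp8* (aquaporin 8) by −2.50 (adjusted p = 7.30e-08). The ubiquitin ligase gene *Rnf125* changed by −1.74 (adjusted p = 2.66e-07) and *Stra6l*, a receptor for retinol-binding protein, by −1.31 (adjusted p = 4.01e-07) in RNA. *Dhrs3*, which reduces retinal to retinol, changed by −1.16 (adjusted p = 5.31e-05) in RPF. *Crot*, the peroxisomal carnitine octanoyltransferase, changed by −1.33 (adjusted p = 2.50e-05) in RPF, and *Clpx*, the unfoldase of a mitochondrial protease, by −1.81 (adjusted p = 4.70e-05). *Spon2*, a secreted matrix protein, *Asap2*, a GTPase-activating protein for ARF, and *Tymp*, thymidine phosphorylase, changed by −3.26 (adjusted p = 3.06e-07), −3.20 (adjusted p = 2.53e-06) and −1.89 (adjusted p = 5.31e-05) in RPF.

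Of the 19 core clock and PAR bZIP genes, RNA of 6 rose (3.29% of all genes) and that of 3 fell (3.76%). RPF of 8 rose (3.46%) and that of 3 fell (3.18%). Median changes were 0.69 and 0.76, against −0.04 and −0.06 over all genes. Without ZT12 replicate 2, 4 rose and 1 fell in RNA. On the activating side of the loop, *Arntl* RNA was 9.66, 9.06 and 6.97 CPM at ZT5 and 2.42, 1.74 and 1.57 at ZT12 (log2 fold change −2.20, SE 0.46, adjusted p = 0.00177), and its footprints went from 9.56, 7.24 and 4.55 to 0.646, 1.35 and 1.68 CPM (log2 fold change −2.59, SE 0.49, adjusted p = 0.00479). Levels at ZT12 were below those at ZT5 in every liver. With only the first sequencing run of each library counted, the RNA call of *Arntl* was lost (adjusted p = 0.461). *Npas2*, a relative of *Clock* that also pairs with BMAL1, had RNA of 2.20, 3.47 and 0 CPM at ZT5 and 0 counts in all 3 livers at ZT12, and RPF of 2.49, 1.86 and 0.910 and then 0 as well. Its RPF groups did not overlap, while in RNA the ZT5 replicate 3 liver was at 0 like the ZT12 livers. Set against a floor of 3 counts over the group, its RNA was at least 6.47-fold lower and its RPF at least 13.7-fold lower at ZT12. Both calls of *Npas2* were lost under DESeq2 and with first runs alone, with adjusted p of up to 0.302 in RNA and 0.141 in RPF. *Clock* fell in RNA, with a change of −0.63 (adjusted p = 0.0313), and gave −0.71 (adjusted p = 0.0858) in RPF.

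The repressor arm moved the other way. *Per1* RNA was 9.22, 6.67 and 10.1 CPM at ZT5 and 45.5, 42.4 and 28.9 at ZT12 (log2 fold change 2.22, SE 0.48, adjusted p = 0.0208), and its RPF went from 5.54, 5.75 and 8.64 to 38.0, 46 and 37.8 (log2 fold change 2.69, SE 0.25, adjusted p = 2.88e-06). *Per2* RPF was 4.29, 2.23 and 4.09 CPM and then 43.6, 33.8 and 35.8 (log2 fold change 3.42, SE 0.46, adjusted p = 0.000901), and *Per3* RPF was 0.970, 0.557 and 1.36 and then 8.66, 8.38 and 11.2 (log2 fold change 3.38, SE 0.40, adjusted p = 5.58e-05). All 3 *Per* genes were higher in every ZT12 liver than in any ZT5 liver. In RNA, *Per2* rose by 2.79 (adjusted p = 0.0012) and *Per3* by 2.60 (adjusted p = 0.0214). *Ciart*, a repressor that binds BMAL1, rose by 4.27 (adjusted p = 0.000243) in RNA and 3.68 (adjusted p = 0.000126) in RPF. *Cry1* footprints rose from 6.37, 5.75 and 4.55 to 13.2, 19.3 and 16.4 CPM (log2 fold change 1.5, SE 0.27, adjusted p = 0.00214), while its RNA gave 0.69 (adjusted p = 0.118) and its TE gave 0.86 (unadjusted p = 0.00649, adjusted p = 0.44). *Cry2* footprints rose by 0.79 (adjusted p = 0.0292).

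*Nr1d1* (REV-ERB alpha) fell in RPF, from 59.4, 91.9 and 80.5 CPM to 26.9, 28.2 and 20.6 (log2 fold change −1.61, SE 0.34, adjusted p = 0.0137). Its paralogue *Nr1d2* gave 0.68 (adjusted p = 0.191) in RNA and 0.49 (adjusted p = 0.226) in RPF, and did not pass the test. Among the PAR bZIP genes, *Tef* rose from 21.1, 17.4 and 32.8 to 78.3, 99.0 and 65.8 CPM in RPF (log2 fold change 1.82, SE 0.33, adjusted p = 0.00528), whereas *Dbp* gave 1.98 (adjusted p = 0.17) and *Hlf* 0.64 (adjusted p = 0.0532). *Nfil3*, their opponent, gave 0.02 (adjusted p = 0.975). Several clock calls rested on single livers: the highest adjusted p with 1 liver left out was 0.137 without the ZT5 replicate 2 liver for *Per1* RNA, 0.195 without the ZT5 replicate 1 liver for *Clock* RNA, 0.164 without the ZT5 replicate 2 liver for *Cry2* RPF, 0.126 without the ZT5 replicate 2 liver for *Npas2* RNA, 0.0687 without the ZT12 replicate 2 liver for *Per3* RNA and 0.0672 without the ZT5 replicate 2 liver for *Nr1d1* RPF.

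**Figure D2:**
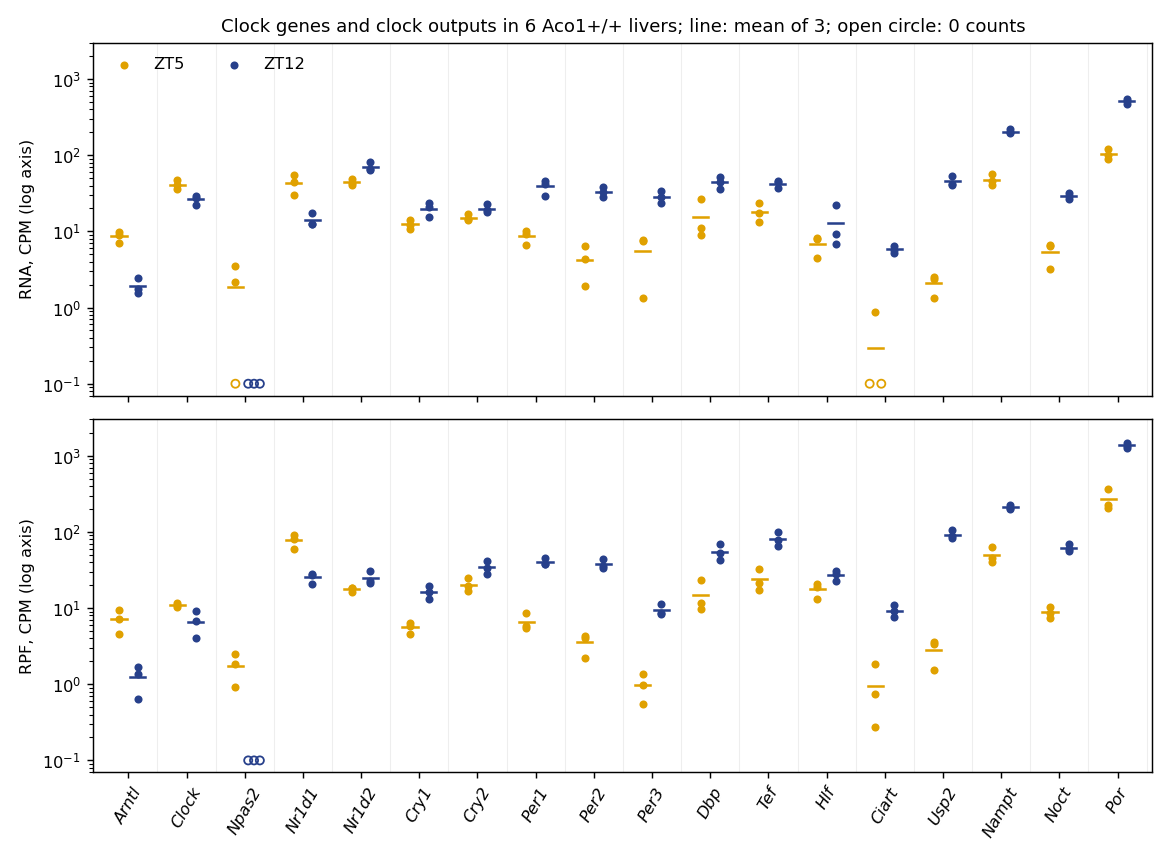
Per-liver CPM on a log axis of clock and clock-output genes in the 3 ZT5 and 3 ZT12 Aco1+/+ livers, for total RNA and RPF, each point 1 liver. *Arntl* is lower at ZT12 in every liver, and *Per1*, *Per2* and *Per3* are higher in every liver.

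The promoter sequences of some clock genes and of the clock output gene *Pfkfb3* are shown because the 3 classes of element of this loop can be read in them. Windows are from the RefSeq promoter table (build GRCm38.p6, 250 bases before to 50 after the start), which held 8510 of the 10696 genes. They are written 5′ to 3′ on the strand of the gene, with the searched letters in capitals.
*Per1* E-box (chr11:69098773-69098798, + strand): cacccaagtcCACGTGcagggatgtg
*Ciart* E-box (chr3:95882329-95882354, − strand): catctagagtCACGTGttgccggtaa
*Cry1* E-box (chr10:85185099-85185124, − strand): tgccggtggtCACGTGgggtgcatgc
*Tef* E-box (chr15:81802536-81802561, + strand): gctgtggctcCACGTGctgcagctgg
*Pfkfb3* E-box (chr2:11502128-11502153, − strand): cccttctctcCACGTGaaagggggct
*Per3* D-box (chr4:151044806-151044833, − strand): ccgcccgcggTTATGTAAcccccgccgt
*Arntl* RORE (chr7:113207531-113207557, + strand): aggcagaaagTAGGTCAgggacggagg
The letters searched on both strands were CACGTG for the E-box, TTATGTAA or TTACGTAA for the D-box and TAGGTCA for the RORE, none of which can overlap another by more than a few end bases. A gene was counted when any of its windows held the letters, as a share of the tested genes with a window. Of 16 genes of the clock list with a window, 5 held CACGTG, 1 the D-box letters and 2 TAGGTCA, the latter *Arntl* and *Nfil3*. Of 14 clock output genes with a window, 3 held CACGTG and none the other letters. CACGTG stood in 12.0% of all such genes, 17.2% of those whose RNA rose, 24.2% of those that rose over 2-fold, 11.9% of those that fell and 13.5% of those that fell over 2-fold. The D-box letters stood in 0.881% of all such genes, 3.28% of those that rose, 6.32% of those that rose over 2-fold, 1.61% of those that fell and 1.92% of those that fell over 2-fold. TAGGTCA stood in 2.51% of all such genes, 3.28% of those that rose, 4.21% of those that rose over 2-fold, 4.18% of those that fell and 5.13% of those that fell over 2-fold. Over all 32851 windows of the table, the shares of windows were 7.15%, 1.06% and 2.61%. These shares are descriptions of letters in short windows and were not tested, and binding was not measured.

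Of 18 clock output genes, RNA of 11 rose (3.29% of all genes) and that of 3 fell (3.76%). RPF of 12 rose (3.46%) and that of 3 fell (3.18%). Without ZT12 replicate 1 or without ZT12 replicate 2, 1 fell in RPF. Their median change was 1.45 in RNA and 1.49 in RPF. Beside *Usp2*, *Nampt*, *Por* and *Pfkfb3*, *Noct*, a phosphatase of NADP(H), had RNA of 6.59, 6.4 and 3.17 CPM at ZT5 and 31.8, 29.1 and 26.7 at ZT12 (log2 fold change 2.35, SE 0.33, adjusted p = 5.22e-05). Its footprints rose by 2.83 (adjusted p = 2.47e-06). Counted over all columns and not the CDS alone, its RNA change was −0.19 (adjusted p = 0.512). The following were picked out after their values were seen. *Wee1*, a kinase that holds cells before mitosis, rose by 3.81 (adjusted p = 0.000111) in RPF, and *Lpin1*, a phosphatidate phosphatase, by 3.44 (adjusted p = 0.0178). The *Lpin1* call had an adjusted p of 0.0797 without the ZT5 replicate 2 liver. *Gys2*, liver glycogen synthase, rose by 1.74 (adjusted p = 0.00412). The falls in RNA were *Elovl3*, a fatty acid elongase, at −3.01 (adjusted p = 0.00301), *Avpr1a*, the vasopressin receptor of liver, at −1.61 (adjusted p = 0.00061), and *Leap2*, a secreted peptide that opposes ghrelin, at −1.17 (adjusted p = 0.00813), the last with an adjusted p of 0.05002 without the ZT12 replicate 1 liver.

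Whether a footprint change came from RNA or from RPF per RNA was read gene by gene from 3 tests. Of the 710 genes called in RPF, 390 were also called in RNA, all in the same direction, and 320 were called in neither RNA nor TE. No RPF call was joined by a TE call. The RNA difference had the sign of the RPF difference in 690 of the 710 (97.2%), against 69.4% over all genes, and the RNA change was larger than the TE change in 585 (82.4%, against 55.3%). The median ratio of the RNA change to the RPF change was 0.848 among RPF calls and that of the TE change 0.160. RPF is the sum of RNA and TE on this scale, so these ratios are not independent of the call in RPF. For the 390 genes called in both, the median RPF change was 1.04 in size, the RNA change 1.06 and the TE change 0.16. The split itself moved with the livers used: without 1 liver, 172 to 423 RPF calls were also RNA calls and 109 to 607 were neither. For the 320, medians were 0.80, 0.46 and 0.36, 300 had RNA with the sign of RPF (146 at an unadjusted p under 0.05, against 1955 of all 10696 genes), and 83 had TE with the sign of RPF at that level (658 of all 10696). A further 364 genes were called in RNA and not in RPF, and no gene was called in opposite directions.

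Some of the 320 with neither call follow. *Asl*, argininosuccinate lyase of the urea cycle, had RPF of 764, 813 and 869 CPM at ZT5 and 1316, 1403 and 1627 at ZT12 (log2 fold change 0.83, SE 0.14, adjusted p = 0.00142), with RNA at 0.42 (adjusted p = 0.0717) and TE at 0.42 (unadjusted p = 0.00151). The choice of these genes required RPF livers that did not overlap. The RPF change of *Asl* was shared evenly between RNA and TE. *Rrm2*, a subunit of ribonucleotide reductase, rose by 1.73 (adjusted p = 0.000644) in RPF with RNA at 1.22 (adjusted p = 0.0864), *Alpl*, tissue-nonspecific alkaline phosphatase, by 1.46 (adjusted p = 0.000122) with RNA at 0.72 (adjusted p = 0.153), and *Tmcc1*, an endoplasmic reticulum membrane protein, by 1.14 (adjusted p = 0.00158) with RNA at 0.58 (adjusted p = 0.0548). *Pdcd4*, an inhibitor of the helicase eIF4A, fell in RPF from 325, 360.1 and 276 to 155, 185 and 206 CPM (log2 fold change −0.82, SE 0.15, adjusted p = 0.00203), with RNA at −0.54 (adjusted p = 0.178). *Smagp* fell in RPF, with a change of −2.25 (adjusted p = 0.000189), while RNA was at −0.61 (adjusted p = 0.597) and TE at −1.60 (adjusted p = 0.514). *Tm4sf1* changed by −1.22 (adjusted p = 0.00153) in RPF, with RNA at −0.34 (adjusted p = 0.632) and TE at −0.89 (adjusted p = 0.564). *Ncald* changed by −1.55 (adjusted p = 0.00214) in RPF, with RNA at −0.64 (adjusted p = 0.374) and TE at −0.95 (adjusted p = 0.658). In all 3 the TE difference was larger in size than the RNA difference, although neither passed the test.

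The TE calls were *Echdc2*, a mitochondrial protein of the enoyl-CoA hydratase family, and *mt-Co1*, the mitochondrially encoded subunit 1 of cytochrome c oxidase. *Echdc2* RNA went from 136, 139.7 and 80.5 CPM to 67.7, 59.7 and 64.1, while its RPF was 120.1, 121 and 86.4 and then 123, 115 and 116. Its log2 TE was −0.18, −0.21 and 0.10 at ZT5 and 0.87, 0.94 and 0.85 at ZT12 (log2 fold change 1.00, SE 0.17, adjusted p = 0.00601), so RNA was lower, footprints were level and TE was higher at ZT12. *mt-Co1* TE was −2.80, −2.89 and −3.02 at ZT5 and −3.53, −3.56 and −3.69 at ZT12 (log2 fold change −0.69, SE 0.13, adjusted p = 0.0342), with RNA at 0.42 (adjusted p = 0.0432) and RPF at −0.27 (adjusted p = 0.394). Both calls depended on the fit: each was called in 1 of the 6 fits with 1 liver left out, and the highest adjusted p was 0.318 without the ZT5 replicate 2 liver for *Echdc2* and 0.407 without the ZT5 replicate 1 liver for *mt-Co1*. The RNA rise of *mt-Co1* was lost without any 1 liver. The TE count itself ran from 0, when RPF and RNA of 1 mouse were not paired, to 79, when only the 6 Aco1+/+ livers entered the fit.

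Iron-responsive elements (IREs) are hairpins bound by IRP1 and IRP2. Binding in a 5′ UTR blocks translation, and binding in the 3′ UTR of *Tfrc* protects the mRNA. The 6 mRNAs with a 5′ IRE had a median TE change of −0.57, against 0.00 over all genes, and TE of 4 was lower at an unadjusted p under 0.05 (3.66% of all genes), but none passed the adjusted test. In 1 of 16 alternative fits each, the lower TE passed it for *Fth1* (adjusted p = 0.0214 in DESeq2), *Alas2* (adjusted p = 0.0180 in edgeR on the 6 livers alone) and *Slc40a1* (adjusted p = 0.0195 in that same fit), and over the alternatives these adjusted p reached 0.961, 1.0 and 1.0. The largest TE difference was that of *Fth1*, the ferritin heavy chain gene, part of the iron storage shell. Its RNA was 1100.0, 924 and 795 CPM at ZT5 and 1131, 793 and 908 at ZT12 (log2 fold change 0.00, SE 0.16, adjusted p = 0.994), so RNA levels overlapped. Its footprints were 603, 762 and 612 CPM at ZT5 and 97.2, 175 and 222 at ZT12 (log2 fold change −2.0, SE 0.38, adjusted p = 0.0105), with every ZT12 liver below every ZT5 liver. Log2 TE was −0.87, −0.28 and −0.38 and then −3.54, −2.18 and −2.04 (change −2.06, SE 0.53, unadjusted p = 0.00438, adjusted p = 0.391). The RPF call of *Fth1* had an adjusted p of 0.0501 without the ZT5 replicate 2 liver, and it was the only RPF call of the 6.

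*Ftl1*, the ferritin light chain, had RNA of 216, 163 and 164 CPM and then 327, 221 and 228, and RPF of 38.9, 96.3 and 54.1 and then 19.3, 27.6 and 38.2. The TE difference was −1.61 (unadjusted p = 0.0402, adjusted p = 0.654). *Slc40a1*, the iron exporter ferroportin, gave a TE change of −0.54 (unadjusted p = 0.000909, adjusted p = 0.261) with RNA at 0.02 (adjusted p = 0.982), and *Alas2*, the haem synthesis enzyme of red cells, −0.59 (unadjusted p = 0.000844, adjusted p = 0.261). *Epas1*, the hypoxia factor HIF2 alpha, rose in RNA by 0.61 (adjusted p = 0.0109), with TE at −0.10. The *Epas1* call did not hold in every fit with 1 liver left out (adjusted p = 0.0761 without the ZT12 replicate 1 liver). Neither of the 3′ IRE mRNAs passed: *Tfrc*, the transferrin receptor, gave 1.62 (adjusted p = 0.117) in RNA and 1.85 (adjusted p = 0.0529) in RPF, and *Slc11a2*, the iron importer DMT1, 0.46 (adjusted p = 0.287) and 0.38 (adjusted p = 0.326). Ferritin and globin genes have near-identical copies, and how reads with several matches were counted is not given in the sources used here.

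**Figure D3:**
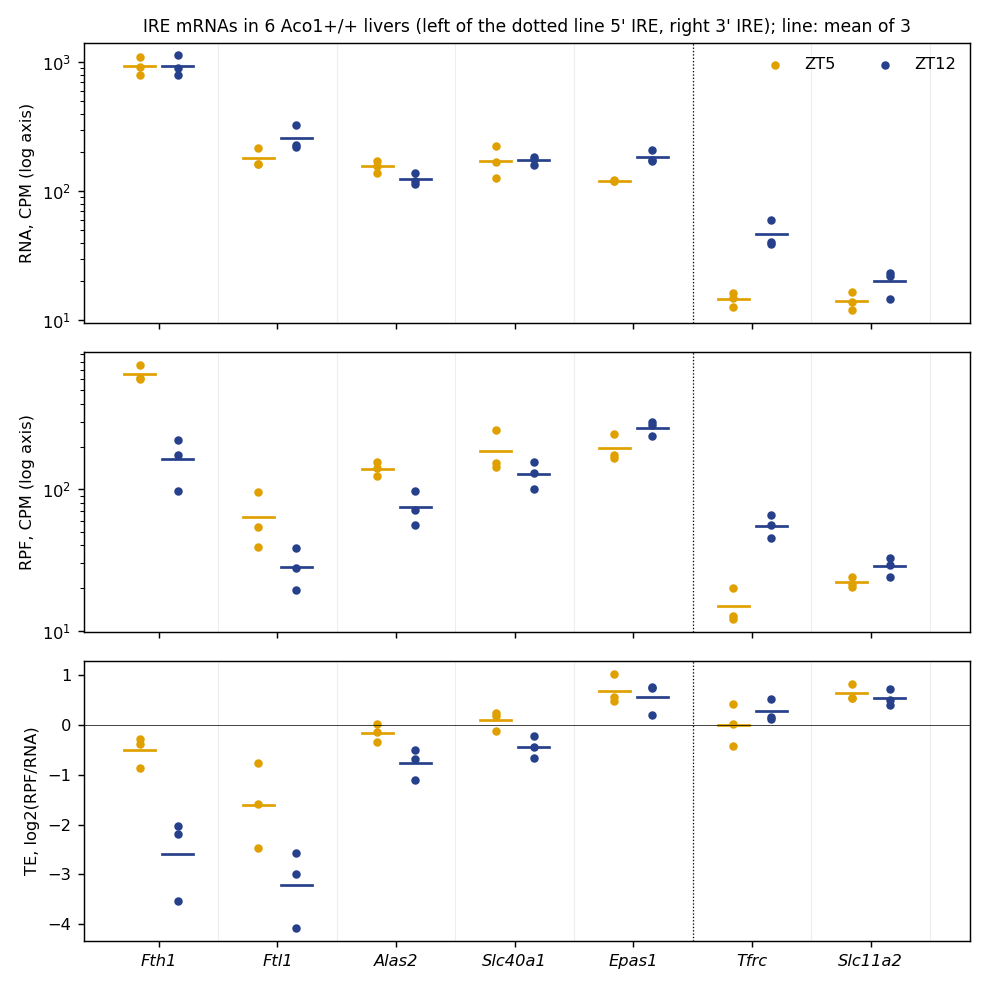
Per-liver RNA and RPF (CPM, log axis) and log2 TE of IRE mRNAs in 3 ZT5 and 3 ZT12 Aco1+/+ livers. *Fth1* footprints are lower in every ZT12 liver at overlapping RNA levels.

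Beyond the IRE mRNAs, 16 genes of iron sensing and handling were tested. *Aco1* itself rose in RNA, from 245, 239 and 249.7 to 319.7, 355 and 358 CPM (log2 fold change 0.49, SE 0.15, adjusted p = 0.0309), with RPF at 0.46 (adjusted p = 0.0656). *Slc39a14*, the importer ZIP14 for non-transferrin iron, rose in RPF from 109.6, 107 and 144 to 259.9, 192 and 178 CPM (log2 fold change 0.81, SE 0.18, adjusted p = 0.0107). Leaving out 1 liver gave an adjusted p of up to 0.13 without the ZT5 replicate 2 liver for *Aco1* and 0.0796 without the ZT12 replicate 1 liver for *Slc39a14*. The list's median changes were −0.05 in RNA and −0.07 in RPF, close to those of all genes.

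Many genes that build ribosomes rose, while of the genes that encode cytosolic ribosomal proteins 1 passed the test, with a fall in RNA. Of 24 ribosome biogenesis factors, 10 rose in RNA (3.29% of all genes) and 13 in RPF (3.46%) and none fell, with medians of 0.59 and 0.72. *Rrp12*, a factor of subunit export, had RPF of 11.1, 11.5 and 14.6 CPM at ZT5 and 42.5, 27.3 and 33.3 at ZT12 (log2 fold change 1.51, SE 0.22, adjusted p = 0.00046). *Nop2*, an rRNA methyltransferase, had 16.9, 18.8 and 19.1 and then 62.2, 34.1 and 40.6 (log2 fold change 1.33, SE 0.20, adjusted p = 0.000467). *Nop56*, a core protein of box C/D snoRNPs, had 14.8, 16 and 14.6 and then 57.7, 30.3 and 26.8 (log2 fold change 1.33, SE 0.24, adjusted p = 0.0021). All 3 genes were higher in every ZT12 liver, and ZT12 replicate 1 was the highest. *Nolc1*, a nucleolar scaffold protein, rose by 1.13 (adjusted p = 0.000436). Without ZT12 replicate 1, 4 of the 24 rose in RPF and 5 in RNA, and without ZT5 replicate 3, 15 rose in RPF.

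Of 73 cytosolic ribosomal protein genes tested, RNA of 1 fell (3.76% of all genes) and no RPF change passed (6.64%). Their median TE change was 0.20, with 7 higher at an unadjusted p under 0.05 (3.82% of all genes). The gene that fell in RNA was *Rpl15*, at −0.75 (adjusted p = 0.0479), named after its value was seen and called in 1 of the 6 fits with 1 liver left out. Of 16 translation factors with a 5′ TOP motif and 76 mitochondrial ribosomal proteins, none passed in RNA, RPF or TE, with RPF medians of 0.00 and −0.20. At an unadjusted p under 0.05, RPF of 10 of these 76 was lower (11.5% of all genes) and that of 0 higher (9.2%, and 20.7% in either direction). The 12 mitochondrially encoded mRNAs tested, which mitochondrial ribosomes translate, had a median TE change of −0.40; TE was lower in 11 of them, and 1, *mt-Co1*, passed. *mt-Nd2* gave a TE change of −0.66 (adjusted p = 0.277) and *mt-Atp8* one of −0.49 (adjusted p = 0.177). In the polyamine pathway *Srm*, spermidine synthase, rose by 1.51 (adjusted p = 4.50e-05) in RNA and 1.12 (adjusted p = 0.0296) in RPF, the latter with an adjusted p of 0.12 without the ZT12 replicate 1 liver.

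Among 20 genes of glucose and glycogen metabolism, RNA of 7 rose (3.29% of all genes) and that of 1 fell (3.76%). RPF of 9 rose (3.46%) and that of 1 fell (3.18%). *Slc37a4*, which carries glucose 6-phosphate into the endoplasmic reticulum, had RPF of 153, 176 and 179 CPM at ZT5 and 455, 382 and 448 at ZT12 (log2 fold change 1.34, SE 0.14, adjusted p = 1.01e-05). Its livers did not overlap. The glycogen-targeting subunits of protein phosphatase 1 went in opposite directions, *Ppp1r3b* at 1.14 (adjusted p = 0.00097) and *Ppp1r3c* at −0.96 (adjusted p = 0.0029) in RPF. *Slc2a2*, the glucose transporter GLUT2, rose by 0.78 (adjusted p = 0.00541) in RPF with RNA at 0.47 (adjusted p = 0.0561). The gluconeogenic enzyme gene *Pck1*, named after its values were seen, rose in RPF by 1.25 (adjusted p = 0.0425), but its adjusted p was 0.167 without the ZT5 replicate 2 liver. Without ZT12 replicate 3, 4 of the 20 rose in RPF.

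Fatty acid synthesis genes followed in part. Of 18, RNA of 5 rose (3.29% of all genes) and that of 1 fell (3.76%), and RPF of 4 rose (3.46%). With any 1 of the 6 livers left out, 3 to 5 rose in RNA and 2 or 3 in RPF. *Thrsp* (Spot 14), a lipogenic cofactor, had RPF of 126, 344 and 147 CPM and then 1683, 858 and 1561 (log2 fold change 2.73, SE 0.56, adjusted p = 0.022). The livers did not overlap. *Fads2*, a fatty acid desaturase, rose by 0.98 (adjusted p = 0.000902), *Lpin2*, a phosphatidate phosphatase, by 0.96 (adjusted p = 0.0326), and *Dgat2*, which makes triglyceride, by 0.69 (adjusted p = 0.00941). *Thrsp*, *Lpin2* and *Dgat2* lost their RPF calls without 1 liver, with adjusted p of up to 0.0884 without the ZT5 replicate 1 liver, 0.139 without the ZT5 replicate 1 liver and 0.0522 without the ZT12 replicate 1 liver. Of 27 genes of fatty acid oxidation and ketogenesis, 6 rose in RPF (3.46% of all genes) and 2 in RNA (3.29%), with medians of 0.36 and 0.38. *Cpt1a*, the gate of mitochondrial oxidation, rose by 0.87 (adjusted p = 0.0187), *Ehhadh*, a peroxisomal enzyme, by 0.73 (adjusted p = 0.00829), and *Hadha*, of mitochondrial beta-oxidation, by 0.56 (adjusted p = 0.0224). With 1 liver left out, 1 to 5 of the 27 rose in RPF and 0 to 2 in RNA, fewest in RPF without ZT5 replicate 2. *Ehhadh* gave −0.38 in RPF in Ireb2+/+ liver.

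Of 26 genes of cholesterol synthesis and uptake, RPF of 3 fell (3.18% of all genes). *Insig2*, which holds the SREBP escort SCAP in the endoplasmic reticulum, had RPF of 144, 135 and 87.3 CPM at ZT5 and 18.9, 18.8 and 25.1 at ZT12 (log2 fold change −2.55, SE 0.34, adjusted p = 0.000984). *Hmgcs1*, HMG-CoA synthase, had 689.5, 785 and 730.4 and then 277, 263 and 290.4 (log2 fold change −1.41, SE 0.17, adjusted p = 5.58e-05). Both were lower in every ZT12 liver. Among 15 bile acid genes, *Cyp7a1*, the rate-limiting enzyme of bile acid synthesis, had RPF of 73.4, 75.2 and 129 CPM and then 189.5, 272 and 271 (log2 fold change 1.42, SE 0.28, adjusted p = 0.008). *Cyp8b1*, which directs synthesis to cholic acid, fell with a change of −0.92 (adjusted p = 0.014), and *Abcb11*, the bile salt export pump, with one of −0.71 (adjusted p = 0.00604). *Nr1h4*, the bile acid receptor FXR, rose by 0.57 (adjusted p = 0.0288). With 1 liver left out the adjusted p reached 0.0557 without the ZT5 replicate 2 liver for *Cyp7a1*, 0.0764 without the ZT12 replicate 1 liver for *Cyp8b1* and 0.159 without the ZT5 replicate 2 liver for *Nr1h4*.

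Of 24 genes of xenobiotic metabolism, 9 rose in RNA (3.29% of all genes) and 6 in RPF (3.46%) and none fell. With any 1 of the 6 livers left out, 3 to 7 rose in RNA and 3 to 7 in RPF. *Cyp2a5*, a P450 of coumarin hydroxylation with a close copy in *Cyp2a4*, had RPF of 252, 166 and 159.6 CPM and then 734, 958 and 607 (log2 fold change 1.99, SE 0.26, adjusted p = 0.000485). *Abcb1a*, the drug efflux pump P-glycoprotein, rose by 1.71 (adjusted p = 0.0103), *Ces1d*, a carboxylesterase, by 0.83 (adjusted p = 0.00158), and *Nr1i2*, the xenobiotic receptor PXR, by 0.86 (adjusted p = 0.00133). The *Abcb1a* call had an adjusted p of 0.0767 without the ZT5 replicate 1 liver. In amino acid catabolism and the urea cycle, 4 of 22 rose in RPF (3.46% of all genes) and 1 fell (3.18%). *Tat*, tyrosine aminotransferase, had RPF of 1388, 1736 and 1399 CPM and then 2824, 4172 and 3912 (log2 fold change 1.27, SE 0.19, adjusted p = 0.000535), without overlap. *Gpt2*, an alanine transaminase, rose by 1.03 (adjusted p = 0.000118), and *Hal*, histidine ammonia-lyase, fell with a change of −1.05 (adjusted p = 0.000548). In insulin and growth hormone signalling 3 of 20 rose in RPF (3.46% of all genes), *Fkbp5*, *Per1* and *Foxo1*. *Foxo1*, a factor of gluconeogenic genes that insulin keeps out of the nucleus, rose by 0.90 (adjusted p = 0.00243).

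Calls among chaperones and secreted proteins went both ways. In the endoplasmic reticulum list of 22, *Herpud1*, of protein degradation there, rose by 1.37 (adjusted p = 0.000295) and *Dnajb9*, a BiP co-chaperone, by 0.85 (adjusted p = 0.0145) in RPF, while *Calr* (calreticulin) and *Pdia6* (a disulfide isomerase) fell, with changes of −0.67 (adjusted p = 0.018) and −0.75 (adjusted p = 0.0188). Of the 22, 19 had a negative RPF change (5988 of all 10696 genes). In RPF 3 fell (3.18% of all genes) and 2 rose (3.46%). The third fall was that of *Atf4*, a stress transcription factor named after its value was seen, at −0.67 (adjusted p = 0.0486). Without ZT12 replicate 1, none of the 22 fell in RPF and *Dnajb9* lost its call (adjusted p = 0.0902). Of 20 heat shock chaperones, 2 rose in RPF (3.46% of all genes). These were *Bag3* at 0.68 (adjusted p = 0.0446) and the mitochondrial *Hspa9* at 0.46 (adjusted p = 0.0393), and neither held without ZT5 replicate 1. In RNA 2 others rose (3.29%), *Hspa8* and *Dnaja1*, named after their values were seen. The *Hspa8* call was kept with any 1 liver left out, and the *Dnaja1* call had an adjusted p of 0.148 without the ZT5 replicate 2 liver. The cold-inducible *Cirbp* fell in RPF, from 26.3, 30.6 and 29.1 to 13.1, 18.0 and 16.4 CPM (log2 fold change −0.85, SE 0.18, adjusted p = 0.00613), and *Srsf5*, a splicing factor, in RNA, at −1.08 (adjusted p = 0.000453). *Rbm3*, the third gene of that list of 3, went the other way without passing the test, at 0.29 in RNA and 0.21 in RPF. Among 20 acute-phase and plasma proteins, the 3 fibrinogen chains fell together in RNA (3.76% of all genes fell). Their changes were −0.63 (adjusted p = 0.00227) for *Fga*, −0.74 (adjusted p = 0.000234) for *Fgb* and −0.74 (adjusted p = 0.000268) for *Fgg*. *Fgg* footprints were 8052, 8018 and 9306 CPM at ZT5 and 4980.0, 4555 and 4884 at ZT12 (log2 fold change −0.82, SE 0.13, adjusted p = 0.000656). *Saa4*, a serum amyloid, rose in RPF by 0.67 (adjusted p = 0.0238), with an adjusted p of 0.132 without the ZT5 replicate 2 liver.

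**Figure D4:**
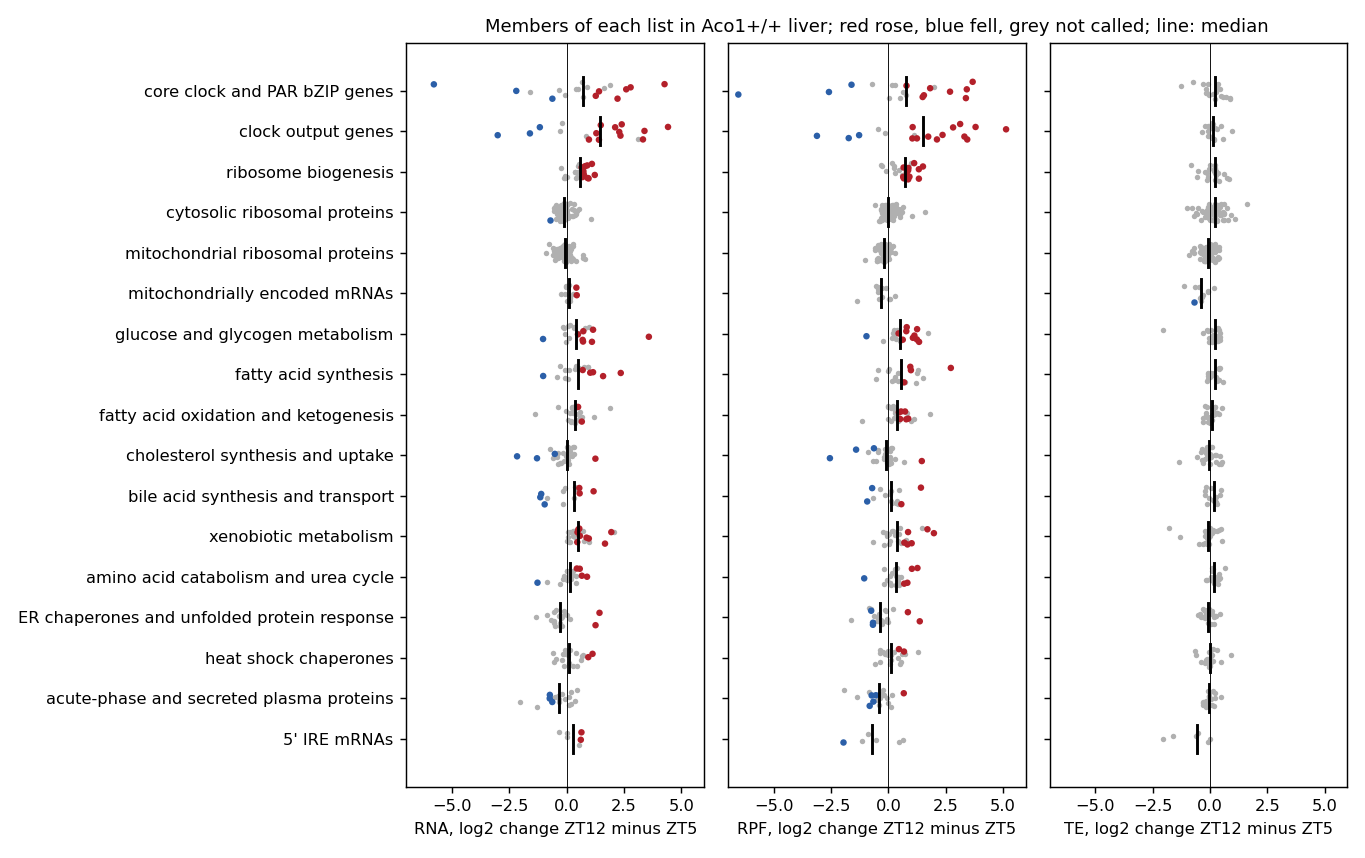
Changes (log2 of ZT12 over ZT5) of the members of each gene list in RNA, RPF and TE, each point 1 gene, with the list median and the calls marked. RPF medians are 1.49 for clock outputs and 0.72 for ribosome biogenesis, and −0.03 for cytosolic ribosomal proteins.

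Markers of other liver cells were checked beside these changes. Summed RNA of 5 cholangiocyte markers was 26.8 to 38.4 CPM at ZT5 and 11.7 to 12.6 at ZT12, and summed RPF 68.8 to 83.9 and then 24.7 to 29.98, with no overlap. *Spp1* (osteopontin) carried most of it: RPF was 54.7, 66.1 and 55.9 CPM and then 21.2, 17.7 and 19.0 (log2 fold change −1.61, SE 0.26, adjusted p = 0.00168), and in Ireb2+/+ liver the change was −0.37. *Sox9* fell in RPF with a change of −1.0 (adjusted p = 0.0446), a call that was lost with any 1 liver left out, and *Krt19* and *Epcam*, which define these cells, gave −1.27 (adjusted p = 0.635) and −0.82 (adjusted p = 0.495). In whole liver, fewer cells of a type and less RNA per cell cannot be told apart. Summed RPF of erythroid markers was 175 to 235 CPM at ZT5 and 90.4 to 117 at ZT12, with RNA of 199.7 to 210.7 and then 143.9 to 184.7, and none of 5 genes passed the test. *Alas2* is one of them, and the TE change of *Hba-a1*, an alpha globin, was −1.23 (adjusted p = 0.282). The part of red cell content in the *Alas2* value was not tested. No Kupffer or endothelial marker of the 8 in each list passed in RNA, RPF or TE, and of 8 stellate cell and fibroblast markers *Col3a1* fell in RNA, at −0.71 (adjusted p = 0.00522). Lymphocyte markers were too low to test.

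The other wild-type group gave a second set of livers for the same contrast. In Ireb2+/+ livers 245 genes were called in RNA (2.29%), 805 in RPF (7.53%) and 57 in TE (0.533%). Of the 754 RNA calls in Aco1+/+ liver, 688 (91.2%) had the same direction in Ireb2+/+, against 63.2% over all genes, and 148 were called in both, 19.6% of the Aco1+/+ list and 60.4% of the Ireb2+/+ list. Of the 710 RPF calls, 674 (94.9%, against 62.4%) had the same direction and 274 were called in both, 38.6% and 34.0% of the lists. The median change in the called direction was 0.91 in Aco1+/+ and 0.49 in Ireb2+/+ for RNA, and 0.90 and 0.55 for RPF. These genes were chosen by their Aco1+/+ values.

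Tests of the difference between the lines passed for 0 genes in RNA (768 at an unadjusted p under 0.05, 7.18%), 11 in RPF (0.103%) and 9 in TE (0.0841%). *Usp2* was one of the 11: RPF rose by 5.14 in Aco1+/+ and by 2.61 in Ireb2+/+ (adjusted p of the difference = 0.000611). *Arntl*, *Per2* and *Cry1* had the same sign in both: the RPF difference in Ireb2+/+ was −0.88 for *Arntl* (adjusted p = 0.419), 1.51 for *Per2* (adjusted p = 0.015) and 1.75 for *Cry1* (adjusted p = 0.0114), and none of these 3 differed between lines past the threshold. *Fth1* gave −0.64 in RPF in Ireb2+/+ (adjusted p = 0.53) and −0.69 in TE (adjusted p = 0.76). *Rrp12* and *Nop2* gave 0.29 and 0.40 in RPF there (adjusted p = 0.568 and 0.252). In TE, *Echdc2* gave 0.24 (adjusted p = 0.68) and *mt-Co1* −1.04 (adjusted p = 0.34). Against Aco1-/- livers of the same line, the change differed past the threshold for 0 genes in RNA (628 at an unadjusted p under 0.05, 5.87%), 0 in RPF (590, 5.52%) and 3 in TE (0.028%), of which *mt-Co1* was one.

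**Figure D5:**
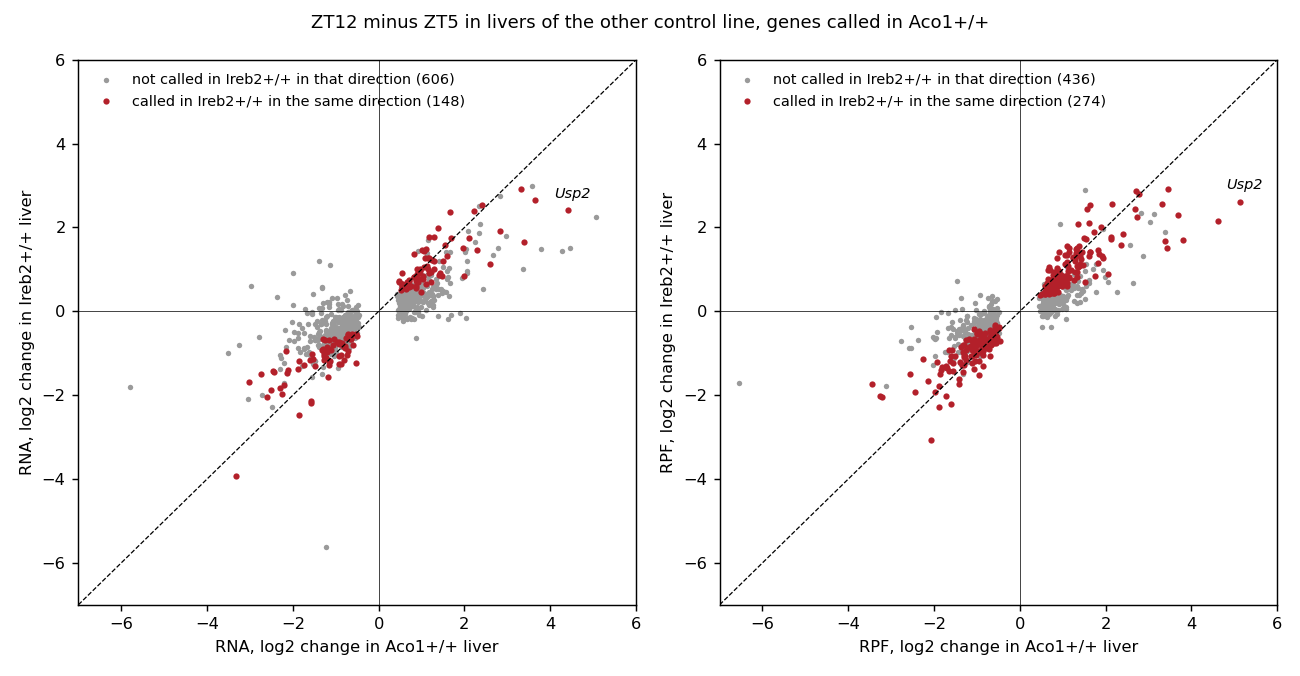
Change in Ireb2+/+ liver (log2 of ZT12 over ZT5, vertical axis) against change in Aco1+/+ liver (horizontal axis) for genes called in Aco1+/+, in RNA and RPF. In RPF, 674 of 710 genes have the same sign in both, and *Usp2* lies below the diagonal.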

How the data were processed

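Livers of 6 Aco1+/+ mice, 3 at ZT5 and 3 at ZT12, were each profiled as RPF and total RNA. Per the methods, the authors removed adapters with cutadapt 3.5, filtered reads by quality and length, removed rRNA and tRNA reads with Bowtie2 and aligned the rest with STAR 2.70f to the mouse genome (Ensembl release of GRCm38). The authors deposited raw counts per gene for each sequencing run. The counting tool, strand setting, handling of reads with several matches and column meanings are not given in the sources used here, and the column numbered 3, which held 91.9 to 95.1% of RPF counts in these libraries, was taken as CDS.

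Runs of a library were summed. Genes (25266 listed, 25214 with a symbol) were filtered with filterByExpr (minimum count 10, minimum total 15), which left 10696. RNA and RPF were fitted separately in edgeR 4.0.16 (R 4.3.3) with quasi-likelihood tests. The filter and the upper-quartile scaling covered all 48 libraries of both lines, RNA and RPF together. Aco1+/+ changes were tested over the libraries of the *Aco1* line, so Aco1-/- livers shared the estimate of spread. Changes in Ireb2+/+ were tested over the *Ireb2* line, and differences between lines over the wild-type libraries of both. TE was tested as the interaction of library type and time with a term for each mouse. SE is the fold change over the root of F. Adjusted p-values are Benjamini-Hochberg over 10696 genes at a threshold of 0.05, and measure the spread between livers. TE per liver used a prior count of 0.5. Every pair of livers within a group differed by more than sampling noise. Scripts were tested on simulated data. Intervals and floors cover counting error only.

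The gene lists and the rule for named genes were chosen with earlier results of these data known. The rule took up to 8 rises and 8 falls per measure with the smallest adjusted p and livers that did not overlap, without predicted and Mup genes, up to 4 per direction for each source of an RPF call, all clock and IRE genes and up to 4 members of each other list. Exceptions are stated where they occur, and some members of the lists are counted but not reported by name here. Alternatives were TMM, DESeq2 1.42.0, limma 3.58.1, other count filters, the 6 livers alone, first runs alone, RNA over all columns, unpaired libraries, a replicate block and leaving out each liver. Replicate numbers did not pair livers across times, which were different mice.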

Additional observations from a re-analysis of the deposited data

Results flagged for a closer look

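The change from ZT5 to ZT12 differed between Aco1+/+ and Ireb2+/+ livers for 11 genes in RPF and 9 in TE, by the edgeR quasi-likelihood test of the difference itself. All values below are log2 differences, Aco1+/+ change minus the other group's change, with adjusted p over all genes, 3 livers in each group and time.

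In RPF, *Usp2* differed by 2.52 (adjusted p = 0.000611), rising in both lines but by more in Aco1+/+. *Hist1h2bc*, a histone H2B gene, differed by −2.20 (adjusted p = 0.000505) and was the 1 gene called in both lines in opposite directions, at −1.46 in Aco1+/+ and 0.73 in Ireb2+/+. *Ehhadh* differed by 1.11 (adjusted p = 0.00559), with 0.73 in Aco1+/+ and −0.38 in Ireb2+/+. *Mup4*, a major urinary protein gene with many near-identical copies, differed by −2.45 (adjusted p = 0.0200). *Abcd2*, a peroxisomal fatty acid transporter, differed by 1.44, and *Oat*, ornithine aminotransferase, by 1.04. *Aldh4a1*, of proline catabolism, differed by 0.88 and the corepressor gene *Aes* by −1.02. *Spp1* differed by −1.24, with −1.61 in Aco1+/+ and −0.37 in Ireb2+/+. The ribosomal protein genes *Rpl37* and *Rps3* differed by −1.93 and −1.37, and their footprints rose in Ireb2+/+ livers, by 1.51 and 1.30.

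In TE, 4 ribosomal protein genes differed between the lines, *Rpl14* by −1.92, *Rpl37a* by −2.41, *Rps27a* by −1.72 and *Rps29* by −2.99. TE of all 4 rose in Ireb2+/+ livers, by 1.81, 2.30, 1.55 and 2.36, and did not pass the test in Aco1+/+ livers. *Gc*, the vitamin D-binding protein, differed by −0.59, *Serpina1c*, an alpha-1-antitrypsin gene with close copies, by −0.83, *Ddrgk1*, of the ufmylation pathway, by −0.97, *Oplah*, 5-oxoprolinase, by 0.89 and *Tmem150a* by 1.12. Adjusted p-values of these 9 lay between 0.00340 and 0.0484.

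Against Aco1-/- livers, TE of 3 genes differed. *Mup12* differed by 2.47 (adjusted p = 0.000384), with −2.22 in Aco1-/- and 0.25 in Aco1+/+. The mitochondrially encoded *mt-Co1* differed by −1.10 (adjusted p = 0.00462) and *mt-Nd5* by −0.89 (adjusted p = 0.0179), with changes of −0.69 and −0.39 in Aco1+/+ and of 0.41 and 0.49 in Aco1-/-.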

How the results depend on the processing

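RNA calls (754) and RPF calls (710) stayed within 1.5 times under TMM (777 and 716), DESeq2 (656 and 824), both count filters and the fit of the 6 livers alone (1056 and 1027), but not with first runs alone (390 and 433), where depth was lower. Without 1 liver they ran from 323 to 743 and from 299 to 1032. TE calls (2) numbered 20 under DESeq2, 16 with RNA over all columns, 5 with first runs alone, 7 without a filter, 1 with a minimum count of 50, 79 in the 6 livers alone, 0 with libraries not paired by mouse, 0 in limma and 0 to 13 without 1 liver. RPF calls with an RNA call only (390) were 208 with first runs alone and 172 to 423 without 1 liver, and those with neither (320) were 109 to 607. RPF calls with a TE call only (0) were 4 under DESeq2, 3 with RNA over all columns, 1 without a filter, 19 in the 6 livers alone and 0 to 2 without 1 liver, and those with both (0) were 3 in the 6 livers alone. RNA had the sign of RPF in 95.7 to 99.3% of RPF calls throughout. *Noct* RNA reversed to −0.19 with RNA over all columns. The causes were not tested. Of 173 values of named genes, 117 stayed past the threshold under every alternative.

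With the replicate number as a block, 748 genes were called in RNA, 789 in RPF and 0 in TE by limma. Deviations of same-numbered livers correlated at 0.04, −0.16 and −0.08 in RNA and 0.15, −0.07 and 0.12 in RPF, so the livers share only a number. Depth limits genes of few counts, chiefly in ZT5 replicate 3.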
